A study of Canis lupus familiaris with 20 samples.

Results

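The 2 exosome libraries of OSCA-32, a dog osteosarcoma cell line, were set against the 8 labelled exosome libraries of the dog osteosarcoma lines OS-1 (4 libraries), OSCA-78 (2 libraries) and OSCA-8 (2 libraries). These 10 libraries were chosen by their titles from the 20 of the series, across all genes, and the 2 OS-2 exosome libraries were left out of the comparison. Total RNA had been sequenced from vesicles that the submitters enriched from culture supernatants by precipitation with ExoQuick, and the same protocol is given for every line. The labels name no treatment, genotype or passage for any group, and each line is 1 cell line, so a difference between lines is a difference between these cultures. OSCA-32 was represented by exosomes alone, so its vesicles could not be set against its own cells. The labels do not say that replicates came from separate cultures, and p-values below measure the spread between libraries, which may be technical.

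Exosomes are small membrane vesicles that form inside endosomes and leave the cell when the endosome fuses with the plasma membrane. They carry proteins and fragments of RNA from the cell that made them, and osteosarcoma, a malignant tumour of bone-forming cells, sheds them into culture medium and blood. Vesicle RNA has been studied as a marker of tumours because it can be recovered from blood, and the series set out to derive such a signature for dogs with this tumour. Precipitation reagents also bring down other particles, so the RNA read here is that of the precipitate.

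OSCA-32 libraries held 410010 and 404979 counts, and the other 8 held 259078 to 478322. A count of 0, with 3 counts taken as the limit, allowed up to 7.32 and 7.41 CPM (counts scaled to a common library total) in OSCA-32 libraries and up to 6.27 to 11.6 CPM in the others. The 8 cell libraries, used here to sort genes by their abundance in cells, held 7728553 to 13301840 counts. Genes are given by Ensembl identifiers, which the files do not pair with names, so osteoblast, vesicle and other markers of the lines were not analysed here.

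In OSCA-32 exosomes no gene reached 1% of a library. The most abundant gene took 0.971% of OSCA-32 replicate 1 and 0.465% of replicate 2. Over the other libraries the top gene took 12.6%, 8.91%, 0.718% and 0.460% in OS-1 replicates 1 to 4, 9.40% and 1.11% in OSCA-78 replicates 2 and 3, and 15.6% and 13.0% in OSCA-8 replicates 1 and 2. The 10 most abundant genes took 2.82% and 1.68% of the OSCA-32 counts. They took 18.9%, 14.4%, 2.50% and 1.63% in OS-1 replicates 1 to 4, 21.3% and 2.08% in OSCA-78, and 28.2% and 19.4% in the OSCA-8 pair. Both OSCA-32 libraries were thus low, and so were OS-1 replicates 3 and 4 and OSCA-78 replicate 3, while the other 5 libraries were high. The division ran through OS-1 and OSCA-78. Outside OSCA-32, the low libraries were those numbered 3 and 4 and the high ones those numbered 1 and 2. The labels name no date or batch and do not say what the numbers stand for, and the part of either in the results was not tested. The mean was 2.25 ± 0.806% in OSCA-32 (SD, n = 2) and 13.6 ± 10.3% in the other lines (n = 8), and the groups overlapped (exact two-sided permutation test of 2 against 8 libraries, p = 0.311, 0.40 after adjustment over 4 measures). The smallest p that 45 assignments allow is 0.0444. The permutation test takes libraries as exchangeable, though libraries of the same line are not independent of each other. In bulk RNA, fewer vesicles of a kind and less RNA per vesicle cannot be told apart.

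**Figure D1:**
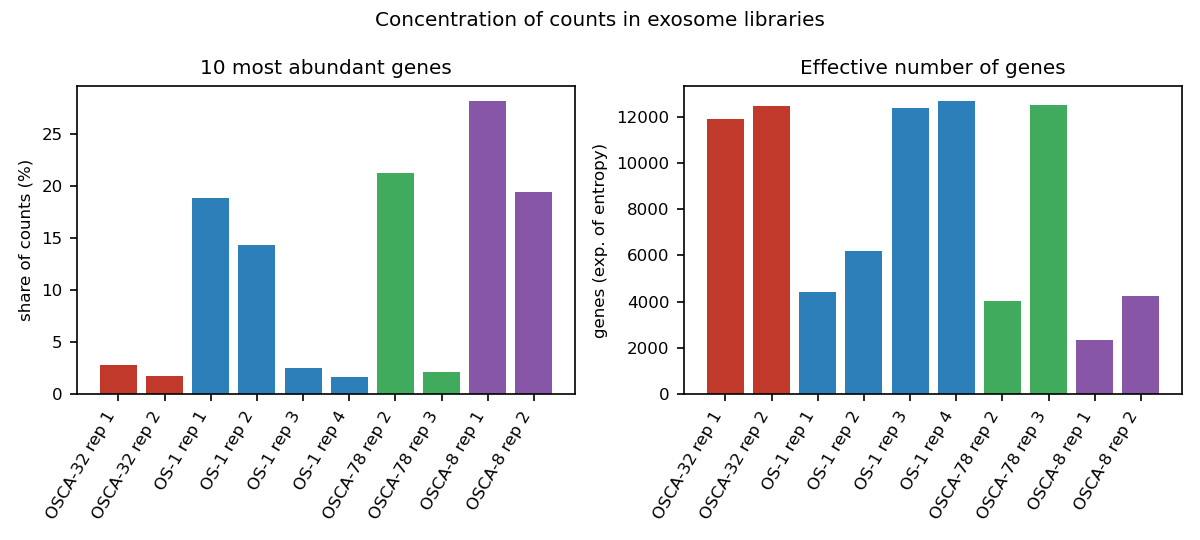
Share of counts in the 10 most abundant genes (left, %) and effective number of genes, the exponential of the Shannon entropy of the counts (right), with 1 bar per exosome library coloured by line. The 2 OSCA-32 libraries stand at 2.82% and 1.68% and at 11887 and 12486 effective genes, beside OS-1 replicates 3 and 4 and OSCA-78 replicate 3.

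The effective number of genes, which counts how many equally abundant genes would give the same evenness, divided the libraries in the same way. It was 11887 and 12486 in OSCA-32 exosomes. It was 4403, 6194, 12388 and 12700 in the OS-1 libraries, 4026 and 12498 in OSCA-78, and 2341 and 4257 in the OSCA-8 pair, as the bar plot of concentration shows. A set of 6 genes, each over 1% of at least 1 of the 10 libraries, went with that spread. Their summed share was 0.932% (95% Clopper-Pearson interval 0.903% to 0.962%) and 0.454% (0.434% to 0.475%) in OSCA-32, and 0.474% to 26.8% in the other 8 libraries. Once these 6 genes were left out, the effective number was 12221 and 12611 in OSCA-32 and 11399 to 13114 in the other lines. OSCA-32 libraries lay inside the range of the others with and without these genes. Among the rest of the genes, 36.9% and 36.4% lay within 2-fold of an even share of the counts in OSCA-32, against 37.2% to 40.5% in the other 8 libraries, so OSCA-32 was the lowest of all 10.

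The number of genes detected in OSCA-32 exosomes overlapped that of the other lines. With counts drawn without replacement down to the lowest total of 259078, 20236.5 and 20263.2 genes were expected to have at least 1 count in OSCA-32 exosomes. The corresponding numbers were 19694 to 20311.1 in the OS-1 libraries, 19891 and 20403 in OSCA-78, and 19360.1 and 19854.7 in the OSCA-8 pair. The mean was 20250 ± 18.9 genes in OSCA-32 (SD, n = 2) and 19981 ± 351 in the other lines (n = 8), with overlapping groups (exact two-sided permutation test, p = 0.40, also 0.40 after adjustment). The difference of 269 genes became -40.6 genes once the 6 abundant genes were left out, which also brought the lowest total down to 212538 counts. Over all 24579 genes, 18 had a count in both OSCA-32 libraries and in none of the other 8, with at most 4 counts in a library. The number was 12 for OSCA-78 and 12 for OSCA-8, counted in the same way. Another 40 genes had no OSCA-32 count and a count in each of the other 8 libraries, against 21 for OSCA-78 and 73 for OSCA-8.

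By rank correlation, OSCA-32 libraries resembled each other most, and after each other OS-1 replicates 3 and 4 and OSCA-78 replicate 3. Over 11364 genes with a mean of at least 10 counts, Spearman's rho of log2 CPM between OSCA-32 replicates 1 and 2 was 0.827. With OS-1 replicates 1 to 4, rho was 0.460, 0.50, 0.765 and 0.817 for OSCA-32 replicate 1, and 0.459, 0.501, 0.767 and 0.817 for replicate 2. With OSCA-78 replicates 2 and 3 it was 0.479 and 0.710 for OSCA-32 replicate 1 and 0.482 and 0.717 for replicate 2. With OSCA-8 it was 0.439 and 0.463 for OSCA-32 replicate 1 and 0.435 and 0.464 for replicate 2. OS-1 replicate 4 thus stood nearly as near to OSCA-32 as the OSCA-32 replicates stood to each other. These correlations run across genes, which are not independent replicates, and share gene length, base composition and the library method. Chi-square per degree of freedom was 1.76 between the OSCA-32 replicates and 1.74 between OSCA-32 replicate 2 and OS-1 replicate 4. The lowest value of any pair was 1.59, so no pair agreed within sampling noise and every library was counted once.

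**Figure D2:**
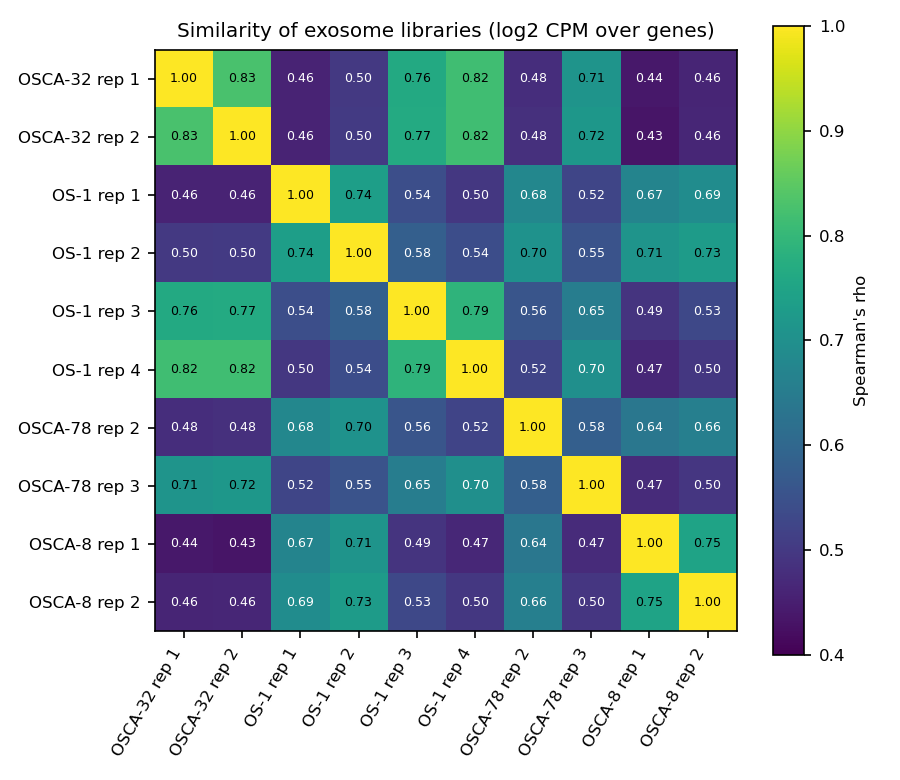
Spearman's rho of log2 CPM between the 10 exosome libraries over 11364 genes, with OSCA-32 at the top and left and the colour running from 0.4 to 1. OSCA-32 replicates reach 0.827 with each other, 0.817 with OS-1 replicate 4 and 0.435 to 0.464 with OSCA-8.

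The most abundant genes of OSCA-32 were shared most with its own replicate and next with OS-1 replicates 3 and 4. Of the 100 most abundant genes of OSCA-32 replicate 1, 78 were among the 100 of OSCA-32 replicate 2. In OS-1 replicates 1 to 4, 33, 37, 73 and 75 of them were found, in OSCA-78 replicates 2 and 3, 36 and 58, and in OSCA-8, 19 and 30. For OSCA-32 replicate 2 the numbers were 32, 35, 70 and 76 in the OS-1 libraries, 31 and 52 in OSCA-78, and 19 and 30 in the OSCA-8 pair. Genes of the most abundant group in cells made up 52 of the 100 in each OSCA-32 library. They made up 48 to 61 in the OS-1 libraries, 60 and 52 in OSCA-78, and 78 and 68 in the OSCA-8 pair. The OSCA-32 replicates differed little from each other, since 13 of the 1641 genes with a mean of at least 50 counts were over 2-fold apart. Of these 13, 12 were higher in replicate 1.

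Sorting genes by their abundance in cells showed where the OSCA-32 counts lay. The 24579 genes were divided into 5768 genes without a count among 91592873 pooled cell counts and 5 groups of about equal size, group 1 the scarcest in cells and group 5 the most abundant. Cells of OSCA-32 were not among them, so a gene without a cell count may have been expressed in OSCA-32 cells. Genes without a cell count took 7.24% (95% Clopper-Pearson interval 7.16% to 7.32%) of OSCA-32 replicate 1 and 7.33% (7.25% to 7.41%) of replicate 2. They took 4.83%, 5.17%, 7.05% and 7.24% in OS-1 replicates 1 to 4, 4.79% and 7.20% in OSCA-78, and 3.87% and 4.59% in the OSCA-8 pair. Both OSCA-32 libraries were above each of the other 8, but OS-1 replicate 4 (7.16% to 7.31%) and OSCA-78 replicate 3 (7.12% to 7.28%) overlapped both OSCA-32 libraries within counting error. The mean share was 7.29 ± 0.0640% in OSCA-32 (SD, n = 2) and 5.59 ± 1.35% in the other lines (n = 8), higher in 2 of 2 libraries. The exact two-sided permutation test gave p = 0.0444, the smallest this design allows, and 0.178 after adjustment over 4 measures, which did not pass 0.05. The test treats libraries of the same line as independent, so a pair of like libraries can reach this p easily. With cells of OS-1, OSCA-78 and OSCA-8 alone defining the gene set, the unadjusted exact permutation p was 0.0889.

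Genes of group 5 took 31.2% and 30.2% of OSCA-32 counts. The share was 40.5%, 38.1%, 30.2% and 29.9% in OS-1 replicates 1 to 4, 37.8% and 29.98% in OSCA-78, and 44.6% and 43.1% in the OSCA-8 pair. OSCA-32 libraries were low, overlapping OS-1 replicates 3 and 4 and OSCA-78 replicate 3, and below both OSCA-8 libraries. The means were 30.7 ± 0.693% in OSCA-32 (SD, n = 2) and 36.8 ± 6.04% in the other lines (n = 8), with an exact two-sided permutation p of 0.40 (0.40 after adjustment). With the 6 abundant genes left out, group 5 took 30.8% and 30.02% in OSCA-32, against 29.7% to 33.3% in the OS-1 libraries, 33.8% and 30.2% in OSCA-78, and 38.4% and 35.7% in the OSCA-8 pair. The share of genes without a cell count was then 7.31% and 7.37% in OSCA-32 and 5.29% to 7.29% in the others. Spearman's rho with the 8 cell libraries, over the same 11364 genes, ran from 0.107 to 0.144 for OSCA-32 replicate 1 and from 0.10 to 0.136 for replicate 2. It ran from 0.0920 to 0.276 for OS-1, from 0.123 to 0.304 for OSCA-78 and from 0.293 to 0.415 for OSCA-8.

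**Figure D3:**
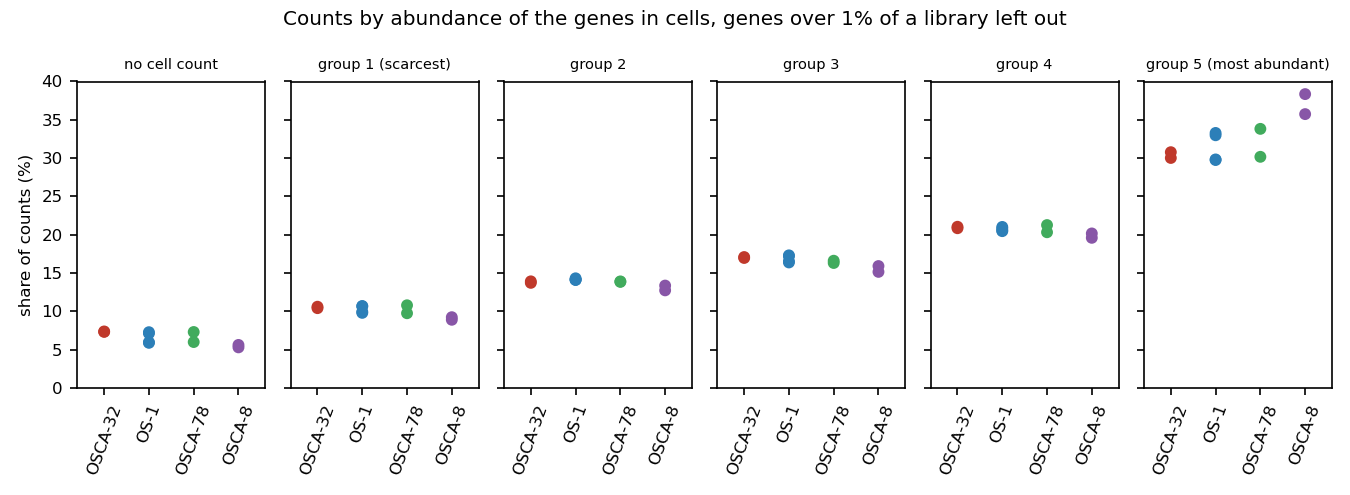
Share of counts (%) in genes without a cell count and in 5 groups of genes by abundance in cells, with 1 point per exosome library, the 4 lines on the horizontal axis and the 6 genes over 1% of a library left out. OSCA-32 points lie at 7.31% and 7.37% in genes without a cell count and at 30.8% and 30.02% in group 5, where OSCA-8 reaches 38.4%.

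Gene by gene, OSCA-32 exosomes were tested against the equally weighted mean of the other 3 lines. The test was edgeR's quasi-likelihood F test on TMM-scaled counts, with Benjamini-Hochberg adjustment over 14587 genes that passed the filter on low counts. It called 0 genes at an adjusted p under 0.05 (0%), and the lowest adjusted p was 0.133. An unadjusted p under 0.05 was reached by 2393 genes, 16.4% of those tested, 1217 higher and 1176 lower in OSCA-32. DESeq2 called 12 genes, 1 higher and 11 lower, and limma voom with quality weights called 210, 184 higher and 26 lower. The count of 0 also moved with single libraries. Without OSCA-78 replicate 3 it was 109, without OS-1 replicate 4 it was 25, and without OSCA-32 replicate 1 or OS-1 replicate 3 it was 1 each. With the replicate number as a block it was 2869. Without a filter on low counts it was 120. With OS-1 left out as a line, an alternative added after the data were seen, it was 806. With OSCA-78 or OSCA-8 left out in the same way it was 0, with 2810 and 1366 genes at an unadjusted p under 0.05. The median 95% interval of a gene reached 0.88 on either side of its log2 fold change, a 1.84-fold difference, before any adjustment.

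Against single lines, whose tests share the OSCA-32 libraries, the calls were uneven. Against OS-1, 0 genes (0%) were called by edgeR, with 1137 at an unadjusted p under 0.05, and DESeq2 and limma voom also called 0. With the replicate number as a block, edgeR called 1926, and the labels do not say what the numbers stand for. Without the block, edgeR called 4 genes (0.0274%) against OSCA-78. Against OSCA-8 it called 140 genes (0.96%), 52 higher and 88 lower in OSCA-32. Median 95% intervals reached 0.95, 1.11 and 1.13 on either side of the log2 fold change against OS-1, OSCA-78 and OSCA-8. As a background, each of the other lines was set against the mean of the remaining 3. This gave 0 calls (0%) for OS-1 with 601 genes at an unadjusted p under 0.05, 14 (0.096%) for OSCA-78, and 163 (1.12%) for OSCA-8. OSCA-32 had fewer calls than OSCA-8 in this setting, but whether these counts differ between lines was not tested.

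**Figure D4:**
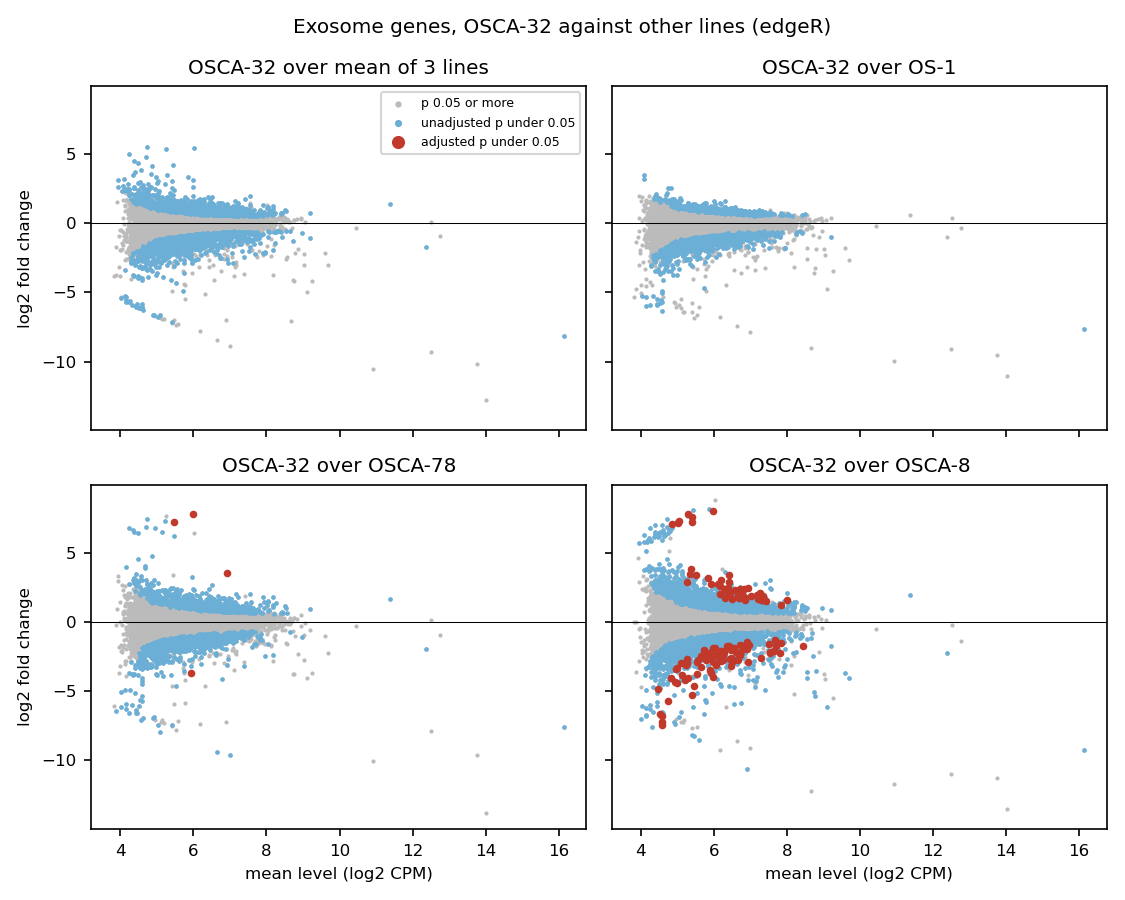
Log2 fold change of OSCA-32 exosomes (vertical axis) against mean level in log2 CPM (horizontal axis) for 14587 genes in 4 comparisons, over the mean of 3 lines, OS-1, OSCA-78 and OSCA-8. Red points passed an edgeR adjusted p under 0.05, which 0, 0, 4 and 140 genes did, and blue points passed an unadjusted p under 0.05.

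Of the genes called against OSCA-8, OSCA-32 was above all 8 other libraries in 25 of the 52 higher ones and below all 8 in 38 of the 88 lower ones. Over all 14587 genes tested the shares were 5.42% above and 4.38% below. The test that chose the genes used the OSCA-32 and OSCA-8 libraries, so these counts are a description. The 52 genes higher in OSCA-32 had a median log2 fold change of 2.25 over OSCA-8, and their median TMM-scaled level was 133 and 133 CPM in OSCA-32. That level was 55.8, 64.6, 103 and 108 CPM in OS-1, 72.8 and 104 CPM in OSCA-78, and 26.1 and 25.8 CPM in the OSCA-8 pair. The 88 genes lower in OSCA-32 had a median log2 fold change of -2.52, with 23.4 and 23.3 CPM in OSCA-32. They stood at 75.9, 72.3, 37.6 and 32.2 CPM in OS-1, 72.8 and 33.5 CPM in OSCA-78, and 156 and 124 CPM in the OSCA-8 pair. Since the test against OSCA-8 chose these genes, the OSCA-32 and OSCA-8 levels only describe the choice, which also largely sets that the other lines lie between them. OS-1 replicates 3 and 4 and OSCA-78 replicate 3 lay nearer to OSCA-32 than the other libraries of the same line did. Of the 140 genes, 0 were called against OS-1 and 0 against OSCA-78. Over all genes tested, 0 were called against OS-1 and 4 (0.0274%) against OSCA-78, so these zeros say nothing particular about the 140 genes. Group 5, the most abundant in cells, held 64 of the 88 lower genes and 8 of the 52 higher ones, and 3605 of the 14587 genes tested.

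The calls against OSCA-8 rested on few libraries. Without OSCA-32 replicate 1, OSCA-32 replicate 2 or OSCA-8 replicate 1, edgeR called 0 genes, with 2031, 2001 and 2128 at an unadjusted p under 0.05, and without OSCA-8 replicate 2 it called 1. In fits that leave out a library of OSCA-32, OSCA-78 or OSCA-8, the lone library left is assumed to vary like the other groups. Without OS-1 replicates 1 to 4 the counts were 400, 400, 245 and 419, and without OSCA-78 replicates 2 and 3 they were 427 and 426. With scaling to total counts in place of TMM, 169 genes were higher and 59 lower in OSCA-32, against 52 and 88, and the median over every gene tested was 0.43 on the log2 scale in place of 0.01. The 6 genes over 1% of a library took 0.932% and 0.454% of the counts in OSCA-32 and 26.8% and 18.1% in OSCA-8. Leaving these genes out gave 138 calls with TMM, and 121 with total counts, 53 higher and 68 lower.

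The 4 genes called against OSCA-78 included 2 genes without an OSCA-78 count. One of these had 22 and 21 counts in OSCA-32 exosomes, against 0 and 0 in OSCA-78 exosomes, and was at least 12.8-fold higher in OSCA-32, taking 3 counts over both OSCA-78 libraries as the limit. The second had 33 and 33 counts in OSCA-32 and 0 and 0 in OSCA-78, at least 19.7-fold higher. Both lacked a cell count, and both were found in OS-1 (9 to 27 and 9 to 34 counts) and in OSCA-8 (12 and 23, and 30 and 32 counts). It was therefore the OSCA-78 libraries that stood apart in them. The next gene had 64 and 53 counts in OSCA-32, 2 and 6 in OSCA-78, and 17 to 70 in the other lines. The gene that was lower had 5 and 4 counts in OSCA-32, 39 and 58 in OSCA-78, and 13 to 20 in the other lines. OSCA-32 was lowest of all 10 libraries in this last gene. The edgeR adjusted p was 0.00994 for the first gene and 0.00118 for each of the other 3. The count of 4 was 9, 13 and 15 without OS-1 replicates 1, 2 and 4, and 2 without either OSCA-32 library.

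Small differences leaned in opposite directions at the 2 ends of the cell abundance scale. Against the mean of 3 lines, the median log2 fold change was 0.29 for 1131 tested genes without a cell count, 0.14 in group 1, 0.04 in group 2, 0.05 in group 3, 0.02 in group 4 and -0.15 in group 5. The median over all 14587 genes was 0.02. At an unadjusted p under 0.05, 153 of the 1131 genes without a cell count were higher and 46 lower in OSCA-32. Of the 3605 tested genes of group 5, 230 were higher and 492 lower. Over all 14587 genes tested, 1217 were higher and 1176 lower. Against OSCA-8 the medians ran from 0.47 without a cell count to -0.31 in group 5, and against OS-1 from 0.14 to -0.07. With total counts the median over all genes was 0.24 against the mean of 3 lines, and that of group 5 turned to 0.07. Relative to the median of all genes, group 5 lay at -0.17 with TMM and -0.16 with total counts, and genes without a cell count at 0.27 and 0.26. Of the 5768 genes without a cell count, 1131 passed the filter, which asks for counts in 2 or more exosome libraries, so these medians speak for the better covered genes. In shares of counts, OS-1 replicates 3 and 4 and OSCA-78 replicate 3 stood beside OSCA-32. Group 5 took 30.2%, 29.9% and 29.98% of them, against 31.2% and 30.2% in OSCA-32 and 37.8% to 44.6% in the other 5 libraries. Genes without a cell count took 7.05%, 7.24% and 7.20% of them, against 7.24% and 7.33% in OSCA-32. The lean was taken from line means, and those of OS-1 and OSCA-78 mix unlike libraries. It was widest against OSCA-8, whose libraries both lay on the high side of the division of top shares. What part the mixing had was not tested, and the lean was not shown to be particular to OSCA-32. No test over genes was made of it.

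In 791 genes (5.42% of those tested) both OSCA-32 libraries were above all other 8 in TMM-scaled CPM, and in 639 (4.38%) both were below. For OSCA-78 set against its other 8 libraries, the numbers were 377 (2.58%) and 398 (2.73%), and for OSCA-8 they were 868 (5.95%) and 734 (5.03%). OSCA-32 thus had more such genes than OSCA-78 and fewer than OSCA-8, in both directions. The 2 OSCA-78 libraries lay on opposite sides of the division of top shares, at 21.3% and 2.08% in the 10 most abundant genes. The OSCA-32 and OSCA-8 pairs were not divided in this way. What part this had in the counts was not tested. Most gaps were narrow. In 3 genes the lower OSCA-32 library was more than 2-fold above the highest of the other 8, and in 34 genes the higher OSCA-32 library was more than 2-fold below the lowest of the others. The corresponding numbers were 4 and 19 for OSCA-78 and 22 and 58 for OSCA-8. The 34 low genes had 0 to 11 counts in OSCA-32 libraries and 1 to 58 in the others. Their median level was 4.88 and 2.47 CPM in OSCA-32, below the limit that a count of 0 allows, against 32.8, 28.2, 21.95 and 19.3 CPM in OS-1, 28.0 and 19.6 CPM in OSCA-78, and 28.1 and 31.5 CPM in the OSCA-8 pair. Over all genes the median level was 21.95 and 22.2 CPM in OSCA-32 libraries and 15.3 to 23.0 CPM in the others. A count of 0 in at least 1 OSCA-32 library occurred in 14 of the 34. Group 5 held 10 of the 34 and 3605 of the 14587 genes tested, so the 10 say little particular about the low genes. Since the gap chose these genes, their levels are a description.

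No gene met the rule for named genes, which asks for an adjusted p under 0.05 against the mean of 3 lines. Leaving out that condition, 1273 of the 14587 genes tested kept one direction against all 3 lines without overlap and at 30 CPM or more. Of these, 775 were higher and 498 lower. Without the limits on direction and CPM, OSCA-32 was above all other libraries in 5.42% of the genes tested and below in 4.38%. From the 1273 genes, and from the 6 genes over 1% of a library, 4 genes were chosen after their values were seen, by the smallest unadjusted p. ENSCAFG00000001168 had 75.6 and 84.0 CPM in OSCA-32 exosomes. It had 11.6, 5.63, 35.5 and 49.9 CPM in OS-1, 18.7 and 44.1 CPM in OSCA-78, and no count in OSCA-8. OSCA-32 was above all others, as the choice of this gene required. Within OS-1 and OSCA-78 the level was higher in OS-1 replicates 3 and 4 and OSCA-78 replicate 3. Its level was 79.8 ± 5.90 CPM in OSCA-32 (SD, n = 2), against 25.7 ± 20.7 in OS-1 (n = 4) and 31.4 ± 18.0 in OSCA-78 (n = 2), and no cell library had a count of it. The log2 fold change over the mean of 3 lines was 3.50 (SE 0.67, edgeR adjusted p = 0.133), a fitted value that depends on the prior count because OSCA-8 was at 0. With OSCA-8 left out as a line it was 1.33 (edgeR adjusted p = 0.488). Against OSCA-8 it was at least 20.1-fold higher, taking 3 counts over both OSCA-8 libraries as the limit (edgeR adjusted p = 0.0320).

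ENSCAFG00000014129 had 82.9 and 116 CPM in OSCA-32 exosomes. It had 34.7, 22.5, 46.0 and 47.7 CPM in OS-1, 18.7 and 17.2 CPM in OSCA-78, and 15.3 and 35.6 CPM in the OSCA-8 pair. OSCA-32 was above every other library, as the choice of this gene required. The means were 99.5 ± 23.4 CPM in OSCA-32 (SD, n = 2), against 37.7 ± 11.6 in OS-1 (n = 4), 17.9 ± 1.06 in OSCA-78 and 25.5 ± 14.3 in OSCA-8 (n = 2 each). Over the mean of 3 lines it was higher by 1.72 on the log2 scale (SE 0.36, edgeR adjusted p = 0.133), and 1.28, 2.31 and 1.57 over OS-1, OSCA-78 and OSCA-8, with adjusted p of 0.630, 0.132 and 0.0939. Cells of the 4 lines held 4.92 to 9.79 CPM of it. Both genes passed in edgeR without OS-1 replicate 4 (adjusted p = 0.0367 for ENSCAFG00000001168 and 0.0465 for ENSCAFG00000014129) and without OSCA-78 replicate 3 (0.0414 and 0.0479), and also without the filter on low counts, by limma voom and without the line OS-1. Over the alternatives that gave an adjusted p, which DESeq2 did not for these genes, it ran from 3.61e-07 to 0.643 for ENSCAFG00000001168 and from 3.79e-04 to 0.643 for ENSCAFG00000014129.

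**Figure D5:**
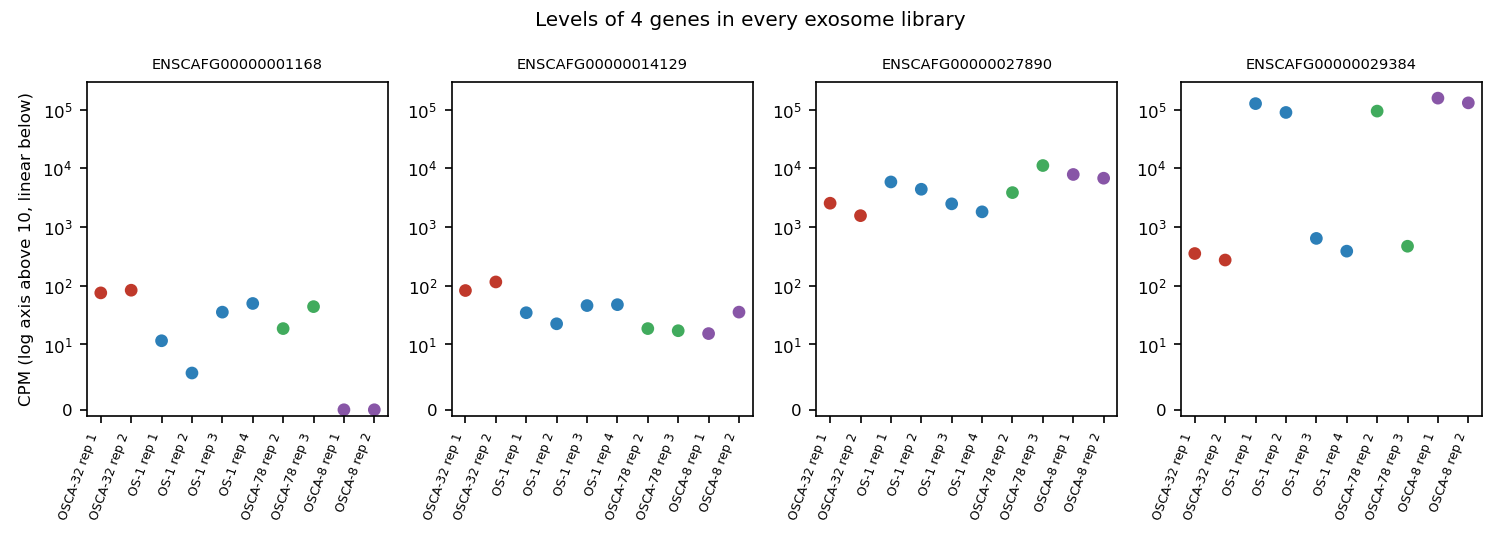
Level in CPM (vertical axis, logarithmic above 10 and linear below) of 4 genes in each of the 10 exosome libraries, with OSCA-32 at the left of each panel. ENSCAFG00000001168 and ENSCAFG00000014129 are highest in OSCA-32, as their choice required. ENSCAFG00000029384 stands at 354 and 274 CPM in OSCA-32 and at up to 156291 CPM in OSCA-8.

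Of the 6 genes over 1% of a library, ENSCAFG00000029384 was one whose levels divided the libraries as the top shares did. It took 354 and 274 CPM in OSCA-32 exosomes. It took 126093, 89132, 640 and 388 CPM in the OS-1 libraries, 94034 and 471 CPM in OSCA-78, and 156291 and 129864 CPM in the OSCA-8 pair. OSCA-32 was the lowest, with OS-1 replicates 3 and 4 and OSCA-78 replicate 3 near it and the other 5 libraries at 89132 CPM or more. The log2 fold change over the mean of 3 lines was -8.16 (SE 2.85, edgeR adjusted p = 0.196), which did not pass, and OS-1 libraries alone ran over 388 to 126093 CPM. DESeq2 gave it an adjusted p of 0.00933, and over the alternatives that kept the gene the adjusted p ran from 4.79e-08 to 0.663. The log2 fold change was -5.83 without OSCA-78 replicate 2 (edgeR adjusted p = 0.481) and -5.55 with limma voom (adjusted p = 0.465). In cells it had 97.4 and 396 CPM in OS-1 replicates A and B, 74.9 and 823 CPM in OS-2, 104 and 888 CPM in OSCA-78, and 75.03 and 358 CPM in the OSCA-8 pair. Its level in cells was thus higher in replicate B in 4 of 4 lines.

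ENSCAFG00000027890 had 2541 and 1561 CPM in OSCA-32 exosomes. It had 5848, 4392, 2480 and 1813 CPM in the OS-1 libraries, 3852 and 11133 CPM in OSCA-78, and 7840 and 6774 CPM in the OSCA-8 pair. OSCA-32 overlapped OS-1 replicates 3 and 4, while OSCA-78 replicate 3 was the highest of all 10. The log2 fold change over the mean of 3 lines was -1.73 (SE 0.60, edgeR adjusted p = 0.185), and the adjusted p ran from 0.00117 to 0.671 over the alternatives that kept the gene. Another 3 of the 6 genes had 0 to 11 counts in each OSCA-32 library, and in the other lines their highest library held 11875, 21276 and 7031 counts. OS-1 replicates 3 and 4 and OSCA-78 replicate 3 held 7, 4 and 22 counts of the first, 0, 0 and 4 of the second and 9, 3 and 14 of the third. The second departed from the division of top shares, with 25 counts in OS-1 replicate 2 and 20 in OSCA-8 replicate 2. It held 5075 counts in OS-1 replicate 1, 21276 in OSCA-78 replicate 2 and 18183 in OSCA-8 replicate 1. The sixth had 2619 and 1092 counts in OSCA-32, within the 677 to 4136 counts of the others.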

How the data were processed

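The deposited table holds raw read counts, whole numbers whose totals differ between libraries, for 24579 dog gene identifiers. The submitters' processing notes name FastQC, version 0.11.5, Trimmomatic, version 0.33.0, and kallisto, version 0.43.0, and list CanFam3.1 and GRCm38.p5 as builds, with no roles. The table's own name refers to Subread. The counting tool, strand setting and handling of shared reads were not given in the sources used here. Counts of similar or overlapping genes are therefore uncertain. Per the labels' protocols, RNA came from the SeraMir ExoRNA kit and libraries from a SMARTer stranded total RNA kit for low input. No molecular identifiers are described, so intervals and limits cover counting error only. There was 1 column, headed as replicate 1 of OSCA-78 exosomes, that matched no label, and it was not used. The identifiers are not paired with names, and 0 matched the RefSeq table at hand, so gene lists could not be used.

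Libraries were grouped by line from their titles. Tests used edgeR 4.0.16 (limma 3.58.1, R 4.3.3) with a coefficient per line over 10 libraries, TMM scaling, filterByExpr (minimum count 10), robust quasi-likelihood F tests and Benjamini-Hochberg adjustment at 0.05. Per-library measures were compared by exact permutation tests (scipy 1.17.1). CPM are scaled to the library total unless called TMM-scaled. Correlations used log2 of CPM with 2 added. The rule for named genes asked for adjusted p under 0.05 against the mean of 3 lines, one sign against each line, no overlap of CPM and 30 CPM in the higher group. It gave 0 genes. The comparison, the lists and the rules were chosen with earlier results of these data known. The fit was tested on simulated data. Alternatives were other scalings and filters, thinning, DESeq2 1.42.0, limma voom, other models, the replicate number as a block and leaving out each library or line.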

Additional observations from a re-analysis of the deposited data

How the results depend on the processing

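Where edgeR called 0 genes against the mean of 3 lines, 120 were called without a filter on low counts, 12 by DESeq2, 210 by limma voom, 806 without the line OS-1, 0 without OSCA-78 or OSCA-8 and 0 to 109 when single libraries were left out. The calls against OSCA-78 (4) became 49 without the filter, 10 by DESeq2, 8 by limma voom and 2 to 15 without single libraries. The calls against OSCA-8 (140) became 228 with total counts, 589 without the filter, 48 among genes with at least 30 counts in 2 libraries, 87 after thinning, 223 by DESeq2, 1099 by limma voom, 316 in a fit of 12 libraries and 0 to 427 without single libraries. Those of OSCA-8 against the other 3 lines (163) became 104 with total counts. With the replicate number as a replicate block, 2869, 1926, 1348 and 2056 genes were called against the mean of 3 lines, OS-1, OSCA-78 and OSCA-8. Over genes, the difference of replicates 1 and 2 in OSCA-32 correlated at 0.01 with that in OS-1 and 0.01 with that in OSCA-8. Between OS-1 and OSCA-8 it correlated at -0.01. The difference of replicates 2 and 3, which lie on opposite sides of the division of top shares, correlated at 0.34 between OS-1 and OSCA-78. Whether libraries with the same number share a batch was not tested. The labels do not say what the numbers stand for, so the block was not taken as the result. With the block the log2 fold changes of ENSCAFG00000001168, ENSCAFG00000014129, ENSCAFG00000027890 and ENSCAFG00000029384 were 4.20, 1.86, -1.99 and -8.87, each past the threshold. The difference in the expected number of genes detected was -40.6 without the 6 abundant genes, at a lower total. The share of counts in genes without a cell count was 1.83 percentage points higher in OSCA-32 with cells of 3 lines, and 1.45 to 1.93 points higher without single libraries, with exact permutation p of 0.0889 in the first case and of 0.0556 or 0.222 in the others, the smallest that 9 libraries allow. RLE and upper quartile scaling, and leaving out the 6 abundant genes, changed no count of calls by more than 1.5 times. The cause of these changes was not tested. Depth limits single genes, since 3 counts make 7.32 CPM or more in an OSCA-32 library.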
